A study of Mus musculus with 9 samples.

Results

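The lens enhancer of *Pax6* and the factors that act on it were followed through 9 genes: *Pax6* itself, its chromosomal neighbours *Elp4* and *Rcn1*, and *Meis1*, *Meis2*, *Pknox1*, *Six3*, *Sox2* and *Pou2f1*, whose products are known to bind or regulate *Pax6* in the lens. They were chosen by name, with earlier results of these data known, and all 9 were found among the 47729 genes of the tables. Polyadenylated RNA from whole lenses of newborn mice was sequenced in 3 lines on the *FVB/N* strain. The lines were non-transgenic *FVB/N*, hemizygous *P0-3.9GFPCre*, whose transgene encodes a fusion of GFP and CRE recombinase, and hemizygous *Le-Cre*, whose transgene encodes nuclear CRE followed by GFP. Both transgenes are driven by the *Pax6* P0 promoter with genomic sequence from upstream of it that includes the ectodermal (lens) enhancer and pancreatic enhancers. The *Le-Cre* construct also holds sequence of the first *Pax6* intron after GFP. Each line was represented by 3 pools, each of 6 lenses from 3 mice, so a pool averages mice and holds both lens epithelium and fibre cells. The comparison of the lines addresses whether lenses that carry extra copies of *Pax6* promoter and enhancer sequence differ in *Pax6*, in its neighbours or in the factors that bind that sequence. Transgene copy number, CRE and GFP transcripts were not analysed here.

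PAX6 is a paired domain and homeodomain transcription factor required for the formation of the lens, and its dose matters, since loss of a single copy disturbs eye development in mice and humans. In the surface ectoderm and lens its gene is transcribed mainly from the upstream P0 promoter under the ectodermal enhancer, to which the homeodomain proteins MEIS1, MEIS2 and PREP1 (encoded by *Pknox1*), SIX3, and SOX2 together with the octamer-binding protein OCT1 (encoded by *Pou2f1*) are known to bind. Further *Pax6* enhancers lie downstream, within introns of *Elp4*, which encodes a subunit of the Elongator complex. *Rcn1* encodes a calcium-binding protein of the endoplasmic reticulum and lies on the other side of *Pax6*.

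On GRCm38 the annotation places *Pax6* at chr2:105668900-105697364 on the plus strand, *Elp4* at chr2:105701027-105904564 and *Rcn1* at chr2:105386291-105399319, both on the minus strand. RefSeq (GRCm38.p6) lists 2 starts for *Pax6*, 13567 bases apart, without naming the promoters. The windows from 250 bases before to 50 bases after each start are shown. That of the upstream *Pax6* start is given because the transgenes carry the P0 promoter with sequence upstream of it, and that of the downstream start for comparison. Which bases of these windows the constructs hold is not given in the sources used here. The windows of *Six3* and *Sox2* are given because they hold the same short motif as the downstream *Pax6* window. Capitals mark TGACAG or its reverse complement, the core recognised by MEIS and PREP proteins.
*Pax6* start 1, chr2:105668646-105668945, plus strand: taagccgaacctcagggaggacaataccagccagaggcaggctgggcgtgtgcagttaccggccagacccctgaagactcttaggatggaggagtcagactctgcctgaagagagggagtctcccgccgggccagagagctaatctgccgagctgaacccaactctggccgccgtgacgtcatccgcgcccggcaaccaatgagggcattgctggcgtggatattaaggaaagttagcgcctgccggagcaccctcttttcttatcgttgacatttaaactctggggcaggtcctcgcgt
*Pax6* start 2, chr2:105682213-105682512, plus strand: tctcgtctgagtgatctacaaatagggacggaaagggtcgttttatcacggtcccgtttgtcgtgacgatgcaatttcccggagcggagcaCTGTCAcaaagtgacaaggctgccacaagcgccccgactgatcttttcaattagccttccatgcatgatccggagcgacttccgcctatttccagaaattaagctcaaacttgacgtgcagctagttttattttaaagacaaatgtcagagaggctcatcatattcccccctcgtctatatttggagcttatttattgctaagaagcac
*Six3*, chr17:85620584-85620883, plus strand: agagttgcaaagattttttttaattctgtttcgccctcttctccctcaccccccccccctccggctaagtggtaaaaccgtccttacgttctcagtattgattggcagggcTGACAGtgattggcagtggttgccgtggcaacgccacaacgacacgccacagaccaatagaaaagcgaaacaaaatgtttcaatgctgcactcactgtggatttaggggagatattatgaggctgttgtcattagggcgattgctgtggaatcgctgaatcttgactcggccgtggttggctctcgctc
*Sox2*, chr3:34649745-34650044, plus strand: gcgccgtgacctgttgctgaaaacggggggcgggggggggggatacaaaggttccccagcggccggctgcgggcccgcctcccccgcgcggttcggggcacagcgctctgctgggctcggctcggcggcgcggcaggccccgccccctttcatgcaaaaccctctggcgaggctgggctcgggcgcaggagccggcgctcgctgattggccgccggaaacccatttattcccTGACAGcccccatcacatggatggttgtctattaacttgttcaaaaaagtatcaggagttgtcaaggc
The window of the upstream *Pax6* start held no TGACAG on either strand. The window of the downstream start held it on the reverse strand, from position -159 relative to the start site. The motif began at -139 in *Six3*, at -18 in *Sox2* and at 17 in the window of *Elp4*, each on the strand of the gene.

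Windows were listed for 7 of the 9 genes, 10 windows in all, and none for *Rcn1* and *Pknox1*. TGACAG occurred in 4 of these 10 windows, against 19.2% of the 32851 promoter windows of the same length in the table. CATTGT, a core of SOX binding sites, occurred in 3 of them, 1 of *Meis1* and 2 of *Pou2f1*, against 12.6% of all windows. The octamer ATGCAAAT occurred in none of the 10 and in 1.74% of all windows. Both strands were searched and no hit of one motif overlapped a hit of another. These counts describe the promoter windows only, and the ectodermal enhancer itself was not searched here.

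The pools held 20670968 to 28098059 expected counts, with a median of 23299676, of which crystallin genes took 39.1 to 43.0%. All 9 lens fibre and all 5 lens epithelium markers were at a mean of 1 TPM or more (TPM, transcripts-per-million, is RSEM's level per length of transcript). The 5 epithelium markers summed to 268 to 281 TPM in *FVB/N*, 250 to 282 in *P0-3.9GFPCre* and 236 to 251 in *Le-Cre*, where the pools did not overlap those of *FVB/N*. *Cdh2* was the largest part of this sum, at 128 to 149 TPM. Whether the listed markers, *Cdh2* among them, are confined to epithelium was not tested, so the sum is not a measure of epithelial content. *Cdh1*, *Pdgfra* and *Cdh2* were lower in *Le-Cre* than in *FVB/N* without overlap, as were 3.96% of all tested genes, while *Foxe3* and *Gja1* overlapped. The 12 retina markers summed to 4.21 to 6.39 TPM in *FVB/N*, 3.49 to 8.78 in *P0-3.9GFPCre* and 2.75 to 11.4 in *Le-Cre*, the highest value being *Le-Cre* pool 2. Of the 5 corneal markers *Krt12* and *Krt14* were at 0 in all pools. Transcripts of Y-linked genes ran from 121 to 193 counts-per-million (CPM) in *FVB/N*, 1.67 to 135 in *P0-3.9GFPCre* and 0.619 to 74.2 in *Le-Cre*, and the labels do not give the sex of the pooled mice. All *Le-Cre* pools were below all *FVB/N* pools in this, so line and Y-linked share cannot be fully told apart in that comparison. In these whole-lens pools, fewer cells of a type and less RNA per cell cannot be told apart.

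*Pax6* was the second most abundant of the 9 genes and its read count was close in all 3 lines. Pool by pool its counts, as CPM normalised by the trimmed mean of M-values (TMM), were 132.9, 134.5 and 126.0 in *FVB/N*, 143.4, 142.2 and 131.1 in *P0-3.9GFPCre* and 127.1, 137.6 and 125.0 in *Le-Cre*. The pools of the 3 lines overlapped, with pools 1 and 2 of *P0-3.9GFPCre* the highest. The means were 131 ± 4.51, 139 ± 6.78 and 130 ± 6.74 CPM (SD, n = 3 pools). *Le-Cre* differed from *FVB/N* by -0.97% (95% interval -10.1 to 9.04%; adjusted p = 0.981 from the quasi-likelihood test of edgeR, adjusted after Benjamini and Hochberg over 15557 genes). *P0-3.9GFPCre* differed from *FVB/N* by 5.88% (interval -3.84 to 16.6%, adjusted p = 0.843) and *Le-Cre* from *P0-3.9GFPCre* by -6.47% (interval -15.1 to 2.99%, adjusted p = 0.758) in the same edgeR fit.

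On the TPM scale *Pax6* was at 86.6, 93.8 and 78.4 in *FVB/N*, 97.59, 95.20 and 94.98 in *P0-3.9GFPCre* and 83.7, 93.9 and 79.9 in *Le-Cre*. Here every *P0-3.9GFPCre* pool was above every pool of the other lines. *P0-3.9GFPCre* was 1.11-fold *FVB/N* (exact permutation p = 0.1, two-sided, the smallest that 3 pools against 3 allow), and 10.7% of the 15557 tested genes had TPM pools of this line wholly above *FVB/N*. *Le-Cre* was 0.895-fold *P0-3.9GFPCre* on this scale (exact permutation p = 0.1), a separation that 8.24% of genes showed in that direction. The TMM counts did not show this separation. Computed from them per kilobase of effective length, on 1 scale for all pools, the *P0-3.9GFPCre* mean was 93.8 instead of 95.9. On that scale every *P0-3.9GFPCre* pool was still above every *Le-Cre* pool, while *FVB/N* pool 2 lay within the *P0-3.9GFPCre* range. The estimated effective length of *Pax6*, the abundance-weighted transcript length that converts reads to TPM, overlapped between all lines (1596 ± 46.3, 1591 ± 88.5 and 1628 ± 31.6 bases, SD, n = 3, for *FVB/N*, *P0-3.9GFPCre* and *Le-Cre*). The tables sum the 26 listed *Pax6* transcripts, so transcripts from P0 and from other promoters were not separated. Any reads from *Pax6* leader sequence of the transgenes could not be told apart from those of the endogenous gene.

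None of the 9 genes passed the cutoff, a change of at least 1.5-fold and an adjusted p no higher than 0.05, in any comparison. In *Le-Cre* against *FVB/N* 0 of 9 were called by edgeR, against 0.0643% of all genes tested, and 0 of 9 had an unadjusted p under 0.05, against 7.94% of all genes. In *P0-3.9GFPCre* against *FVB/N* the called share of all genes was 0%, and 0 of 9 had an unadjusted p under 0.05, against 6.81%. In *Le-Cre* against *P0-3.9GFPCre* the called share was also 0%, and 1 of 9, *Rcn1*, had an unadjusted p under 0.05, against 7.88%. Limma-voom called 0 of 9 in each comparison. DESeq2 called 0 of 9 in both comparisons of *Le-Cre* and 0 of 6 in *P0-3.9GFPCre* against *FVB/N*, where it gave no adjusted p for *Meis1*, *Pknox1* and *Sox2*. The median log2 fold change of the 9 was -0.014, 0.028 and -0.071 in the 3 comparisons, beside medians over all genes of -0.0040, 0 and -0.0018.

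How large a difference these pools leave room for can be read from the intervals. The 95% intervals of the 9 genes ran from 0.776-fold to 1.34-fold in *Le-Cre* against *FVB/N*, from 0.850-fold to 1.28-fold in *P0-3.9GFPCre* against *FVB/N* and from 0.734-fold to 1.26-fold in *Le-Cre* against *P0-3.9GFPCre*. No interval of this fit reached 1.5-fold in either direction, as the plot of differences with their intervals shows. When each pool's share of Y-linked counts entered the fit, the intervals in *Le-Cre* against *FVB/N* widened to 0.659-fold to 1.74-fold, and those of *Sox2* and *Pou2f1* passed 1.5-fold. In *P0-3.9GFPCre* against *FVB/N* that fit put *Pax6* at 1.125-fold (interval 1.005 to 1.259, unadjusted p = 0.0429, adjusted p = 0.675, edgeR). It put *Pou2f1* at 1.232-fold (interval 1.037 to 1.463, unadjusted p = 0.0225, adjusted p = 0.646, edgeR). The intervals of the remaining genes in that comparison included no change. Pools of *Le-Cre* and *FVB/N* did not overlap for 2 of the 9, *Rcn1* and *Pou2f1*, against 13.5% of all genes. For *P0-3.9GFPCre* and *FVB/N* this was so for 0 of 9, against 12% of all genes, and for *Le-Cre* and *P0-3.9GFPCre* for 1 of 9, *Rcn1*, against 14.1%.

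**Figure D1:**
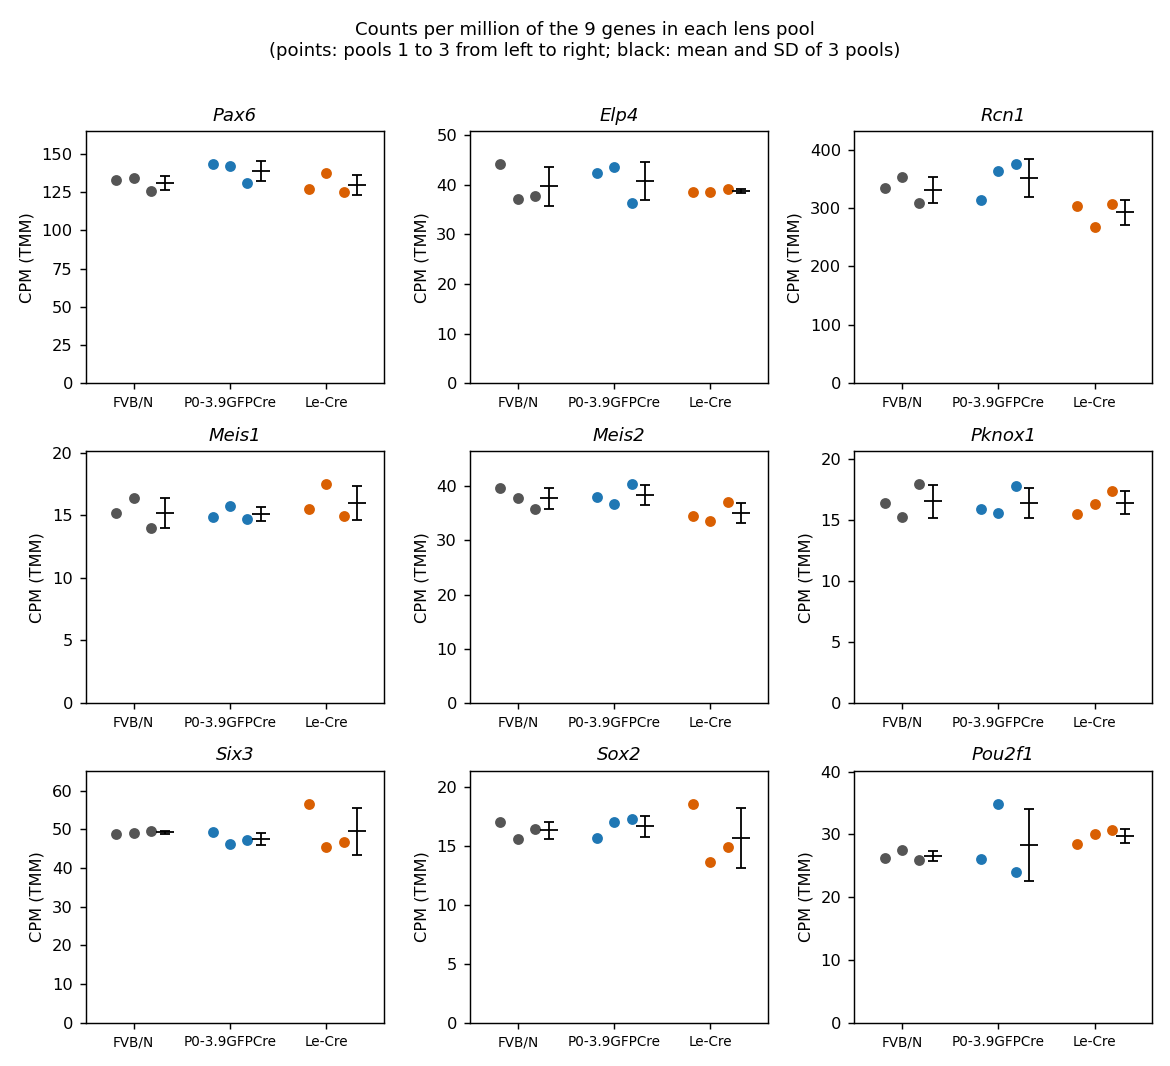
TMM-normalised CPM (vertical axis, from 0) of the 9 genes in each of the 9 lens pools, with pools 1 to 3 of each line from left to right and the mean and SD of the 3 pools in black. *Rcn1* was lowest in the 3 *Le-Cre* pools (268 to 307 CPM), and *Pax6* lay between 125.0 and 143.4 CPM in every pool.

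**Figure D2:**
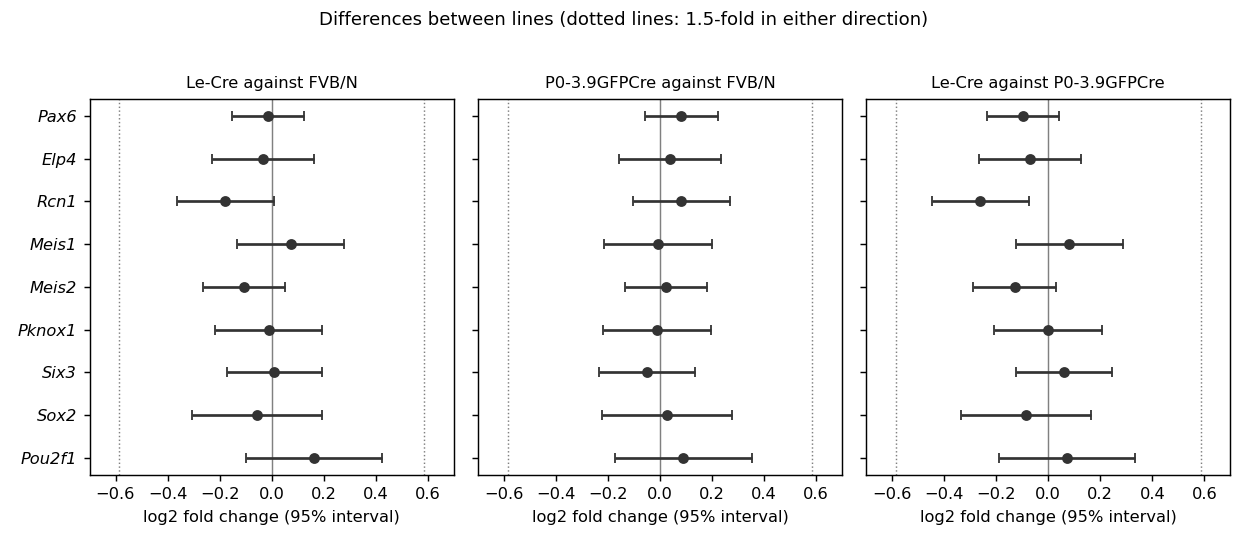
Log2 fold changes of the 9 genes from edgeR with 95% intervals (horizontal axis) in the 3 comparisons, the line named first relative to the other, with dotted lines at 1.5-fold. All intervals stay inside the dotted lines, and that of *Rcn1* in *Le-Cre* against *P0-3.9GFPCre* (-0.45 to -0.07) is the one that does not cross 0.

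Of the neighbours, *Elp4* did not separate the lines. Its counts were 44.2, 37.2 and 37.7 CPM in *FVB/N*, 42.3, 43.6 and 36.4 in *P0-3.9GFPCre* and 38.6, 38.6 and 39.3 in *Le-Cre*. The *Le-Cre* pools lay within the range of each of the other lines. The log2 fold change was -0.03 ± 0.09 (SE) in *Le-Cre* against *FVB/N* (edgeR, adjusted p = 0.961) and 0.04 ± 0.09 in *P0-3.9GFPCre* against *FVB/N* (edgeR, adjusted p = 0.959). *Pax6* was at 5.10 ± 0.42, 5.13 ± 0.42 and 4.55 ± 0.64 times the TPM of *Elp4* in *FVB/N*, *P0-3.9GFPCre* and *Le-Cre* (SD, n = 3), ranges that overlapped.

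*Rcn1* was the most abundant of the 9 and had the largest log2 fold change of read counts in the edgeR fit. Its counts were 333.5, 352.6 and 308.5 CPM in *FVB/N*, 313.5, 364.0 and 374.9 in *P0-3.9GFPCre* and 303.9, 267.8 and 306.7 in *Le-Cre*. All *Le-Cre* pools were below all others, pools 1 and 3 lying just under the lowest *FVB/N* pool. The log2 fold change was -0.26 ± 0.08 (SE) in *Le-Cre* against *P0-3.9GFPCre*, a 16.5% lower mean (interval 5.03 to 26.6% lower; unadjusted p = 0.0105, adjusted p = 0.476, edgeR). Against *FVB/N* it was -0.18 ± 0.08 (SE, unadjusted p = 0.0578, adjusted p = 0.655, edgeR). Over 20 alternative fits the first of these stayed between -0.33 and -0.20 and its adjusted p between 0.177 and 0.838. On the TPM scale the *Le-Cre* pools (131.3, 121.5 and 126.0) stayed below those of *P0-3.9GFPCre* (142.8, 156.8 and 159.4) but overlapped those of *FVB/N* (140.3, 149.2 and 126.4). The *Le-Cre* pools also lay below *FVB/N* in the epithelium marker sum (251.4, 250.6 and 236.2 TPM). They overlapped *P0-3.9GFPCre* in it, whose pool 3 had the highest *Rcn1* count and a sum of 249.8 TPM. The part of epithelium in the *Rcn1* values was not tested.

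Other genes near *Pax6* on chromosome 2 were taken from a list of 10, of which 9 were in the tables and 7 were tested. None was called in any comparison. An unadjusted p under 0.05 (edgeR) was found for 1 of the 7 in *Le-Cre* against *FVB/N*, beside 7.94% of all genes. In *P0-3.9GFPCre* against *FVB/N* it was also 1 of the 7, beside 6.81% of all genes. In both this was *Mpped2*, which encodes a metallophosphoesterase. *Mpped2* was at 11.3, 12.0 and 12.3 CPM in *FVB/N*, 9.38, 10.6 and 8.62 in *P0-3.9GFPCre* and 8.29, 8.74 and 9 in *Le-Cre*. The 6 transgenic pools were all below the 3 others. The log2 fold change of *Le-Cre* was -0.45 ± 0.11 (SE, unadjusted p = 0.00128, adjusted p = 0.249, edgeR) and that of *P0-3.9GFPCre* -0.32 ± 0.11 (unadjusted p = 0.0121, adjusted p = 0.637, edgeR), both against the same 3 *FVB/N* pools, and 7.03% and 5.94% of all genes lay below *FVB/N* without overlap. The median log2 fold change of the 7 was -0.027 and -0.074 in these comparisons. The non-coding *Pax6os1*, antisense to *Pax6*, was low, at 0.66 to 0.68 CPM in the 3 lines, and *Paupar*, a non-coding RNA next to *Pax6*, was at 1.64 to 1.89 CPM, both with overlapping pools.

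The MEIS and PREP genes encode TALE homeodomain proteins, which recognise the TGACAG core and act with PBX partners. *Meis2* was at 39.7, 37.8 and 35.9 CPM in *FVB/N*, 38.0, 36.8 and 40.4 in *P0-3.9GFPCre* and 34.6, 33.6 and 37.2 in *Le-Cre*. The ranges of the lines overlapped, with *Le-Cre* pools 1 and 2 the lowest of all 9 (log2 fold change against *FVB/N* -0.11 ± 0.07, SE, adjusted p = 0.783, and against *P0-3.9GFPCre* -0.13 ± 0.07, adjusted p = 0.709, both from edgeR). *Meis1* and *Pknox1* overlapped between all lines. *Meis1* ran from 14.0 to 16.4 CPM in *FVB/N*, 14.7 to 15.7 in *P0-3.9GFPCre* and 15.0 to 17.5 in *Le-Cre*. *Pknox1* ran from 15.3 to 17.9, 15.6 to 17.8 and 15.5 to 17.4 CPM in the same order. On the TPM scale *Meis2* made up 60.5 ± 4.91%, 60.5 ± 1.89% and 59.7 ± 1.39% of the 3 genes' sum (SD, n = 3), and the sum was 23.9 ± 3.01, 24.9 ± 0.55 and 24.5 ± 1.42 TPM. The level of *Pax6* was 3.63 ± 0.43, 3.86 ± 0.10 and 3.51 ± 0.19 times that sum, with the *FVB/N* pools overlapping both other lines. All *P0-3.9GFPCre* pools (3.74 to 3.92) were above all *Le-Cre* pools (3.29 to 3.62). How often such a ratio separates these lines by chance was not computed. Of the 51-base sequences of *Meis1* transcripts, 17.0% also occur in other genes, 9.02% in the overlapping *Gm37818*, so its counts are less certain than those of *Meis2*, for which the share was 0.17%.

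A further 8 TALE genes, PBX partners and the TGIF repressors among them, were all tested and 0 were called in any comparison. In each comparison 1 of the 8 had an unadjusted p under 0.05 (edgeR), beside 6.81 to 7.94% of all genes. Their median log2 fold change was -0.25 in *Le-Cre* against *FVB/N*, -0.026 in *P0-3.9GFPCre* against *FVB/N* and -0.15 in *Le-Cre* against *P0-3.9GFPCre*. *Pbx3* was the most abundant of them, at 38.9, 40.9 and 38.3 TPM in *FVB/N*, *P0-3.9GFPCre* and *Le-Cre*, above *Meis2* at 14.6, 15.1 and 14.6. *Pbx2* was at 37.0 ± 2.55 CPM in *Le-Cre* and 46.8 ± 7.49 in *FVB/N* (SD, n = 3, log2 fold change -0.34 ± 0.12, SE, unadjusted p = 0.0167, adjusted p = 0.513, edgeR), but *Le-Cre* pool 1, at 39.9 CPM, was above *FVB/N* pool 1, at 39.1.

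*Pbx4* separated *Le-Cre* from *P0-3.9GFPCre*, while the *FVB/N* pools were split between their levels. Of all genes, 7.37% were lower in *Le-Cre* than in *P0-3.9GFPCre* without overlap. Its counts were 2.87, 8.43 and 3.60 CPM in *FVB/N*, 8.55, 9.06 and 7.86 in *P0-3.9GFPCre* and 3.10, 3.00 and 3.26 in *Le-Cre*. *FVB/N* pool 2 lay with the 3 *P0-3.9GFPCre* pools, and the other *FVB/N* pools lay with *Le-Cre*. The log2 fold change in *Le-Cre* against *P0-3.9GFPCre* was -1.44 ± 0.32 (SE, unadjusted p = 0.000966, adjusted p = 0.378, edgeR). It passed the cutoff when only the pools compared were fitted (edgeR, adjusted p = 0.0065), with DESeq2 without a prior (adjusted p = 0.00306), without the filter on low counts (edgeR, adjusted p = 0.000137) and without *FVB/N* pool 2.

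*Six3* encodes a homeodomain protein of the sine oculis family that activates *Pax6* in the lens ectoderm. Its counts were 48.9, 49.2 and 49.7 CPM in *FVB/N*, 49.2, 46.2 and 47.3 in *P0-3.9GFPCre* and 56.6, 45.5 and 46.7 in *Le-Cre*. *Le-Cre* pool 1 was the highest of all 9 pools and *Le-Cre* pool 2 the lowest, so the *Le-Cre* pools surrounded the others (log2 fold change against *FVB/N* 0.01 ± 0.08, SE, adjusted p = 0.989, edgeR). The non-coding *Six3os1*, on the opposite strand, shares 106 exonic bases with *Six3* and had 4574 to 5995 expected counts a pool against 954 to 1590 for *Six3*. It was at 202 ± 6.41 CPM in *Le-Cre*, 225 ± 6.92 in *FVB/N* and 226 ± 15.1 in *P0-3.9GFPCre* (SD, n = 3), with all *Le-Cre* pools below the others. Its log2 fold change against *FVB/N* was -0.16 ± 0.06 (SE, unadjusted p = 0.0293, adjusted p = 0.586, edgeR) and against *P0-3.9GFPCre* -0.16 ± 0.06 (unadjusted p = 0.0245, adjusted p = 0.538, edgeR). Whether counting used strand is not given in the sources used here, so reads from the shared bases cannot be assigned to either gene.

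Of 10 further genes of the sine oculis, EYA and DACH families, whose products act together in eye development, 8 were tested and 0 were called. In each comparison 1 of these 8 had an unadjusted p under 0.05 (edgeR), beside 6.81 to 7.94% of all genes. *Six3* was by far the most abundant of the sine oculis genes, at 19.5, 19.6 and 20.2 TPM in *FVB/N*, *P0-3.9GFPCre* and *Le-Cre*, against at most 4.38 TPM for *Six5* in any pool and at most 1.19 TPM for *Six6*. *Six5* was at 10.1, 10.8 and 12.8 CPM in *FVB/N*, 10.9, 9.79 and 9.56 in *P0-3.9GFPCre* and 9.18, 8.19 and 7.42 in *Le-Cre*. The *Le-Cre* pools were below all others (log2 fold change against *FVB/N* -0.44 ± 0.13, SE, unadjusted p = 0.00513, adjusted p = 0.357, edgeR). *Eya1*, a cofactor of these proteins, was at 14.9 ± 1.18 CPM in *FVB/N* and 12.1 ± 1.62 in *P0-3.9GFPCre* (SD, n = 3, log2 fold change -0.30 ± 0.13, SE, unadjusted p = 0.0401, adjusted p = 0.702, edgeR), with overlapping pools. *Six6*, a retinal member of the family, was at 0.53, 1.55 and 0.041 CPM in *FVB/N*, 0.99, 0.82 and 0.81 in *P0-3.9GFPCre* and 2.10, 4.14 and 0.59 in *Le-Cre*. The summed retina markers of the same pools were 5.14, 6.39 and 4.21 TPM, 3.49, 8.78 and 5.78 TPM, and 6.74, 11.4 and 2.75 TPM. The order of the pools was the same for both in *FVB/N* and *Le-Cre* but not in *P0-3.9GFPCre*, and the part of retina in the *Six6* values was not tested.

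*Sox2* encodes an SRY-related factor that acts with OCT1 on the enhancer. It was at 17.0, 15.6 and 16.5 CPM in *FVB/N*, 15.7, 17.1 and 17.3 in *P0-3.9GFPCre* and 18.6, 13.6 and 14.9 in *Le-Cre*. The *Le-Cre* pools spanned both the highest and the lowest value (log2 fold change against *FVB/N* -0.06 ± 0.11, SE, 95% interval 0.809-fold to 1.14-fold, adjusted p = 0.947, edgeR). *Sox2ot*, the long non-coding transcript within which *Sox2* lies, was at 60.5 to 62.6 CPM in the 3 lines and also overlapped. Among 11 further SOX and POU genes, 7 were tested and 0 were called. An unadjusted p under 0.05 (edgeR) was found for 1 of the 7 in *Le-Cre* against *FVB/N*, beside 7.94% of all genes, and for 0 in the other comparisons. *Sox1*, the related factor that activates gamma-crystallin genes in fibre cells, was at 56.7, 54.9 and 54.7 TPM in *FVB/N*, *P0-3.9GFPCre* and *Le-Cre*, well above *Sox2* at 8.53, 9.13 and 8.39 TPM, while *Sox3* stayed at 0.53 TPM or less in every pool. *Sox12* was at 29.8 ± 2.16 CPM in *Le-Cre* and 35.7 ± 2.84 in *FVB/N* (SD, n = 3), without overlap (log2 fold change -0.26 ± 0.09, SE, unadjusted p = 0.0139, adjusted p = 0.488, edgeR). *Pou2f3*, the tested gene of this list with the largest log2 fold change against *FVB/N*, was under 1 CPM in every pool.

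*Pou2f1*, which encodes OCT1, was the one of the 9 genes whose *Le-Cre* and *FVB/N* pools separated in opposite directions by read count and by TPM. Its counts were 26.3, 27.5 and 25.9 CPM in *FVB/N*, 26.1, 34.8 and 24.0 in *P0-3.9GFPCre* and 28.5, 30.0 and 30.7 in *Le-Cre*. All *Le-Cre* pools were above all *FVB/N* pools, and *P0-3.9GFPCre* pool 2 was the highest. The log2 fold change in *Le-Cre* against *FVB/N* was 0.16 ± 0.12 (SE, adjusted p = 0.802, edgeR), and 6.46% of all genes were higher without overlap. When the Y-linked share entered the fit it was 0.49 ± 0.14 (SE, 95% interval 1.14-fold to 1.74-fold, unadjusted p = 0.00498, adjusted p = 0.954, edgeR). On the TPM scale the same pools read 4.66, 4.24 and 3.93 in *FVB/N*, 4.39, 7.82 and 3.71 in *P0-3.9GFPCre* and 2.62, 2.81 and 2.89 in *Le-Cre*, the *Le-Cre* pools now being below all others. *Le-Cre* was 0.649-fold *FVB/N* on this scale (exact permutation p = 0.1, the smallest possible), and 1.04% of all genes were lower by at least 1.5-fold without overlap. Fitted with limma on log2(TPM + 0.1), it gave -0.60 (adjusted p = 0.779).

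The effective length that RSEM estimated for *Pou2f1* also separated *Le-Cre* from the other lines. It was 5952, 6976 and 6665 bases in *FVB/N*, 6703, 4839 and 6979 in *P0-3.9GFPCre* and 11550, 12140 and 10890 in *Le-Cre*. The *Le-Cre* estimates were 1.77-fold those of *FVB/N* and 1.87-fold those of *P0-3.9GFPCre* (exact permutation p = 0.1 each, the smallest possible), without overlap. Of the 15557 tested genes, 7 (0.045%) had *Le-Cre* lengths above those of the other 6 pools, with a mean at least 1.5-fold theirs. These included *Eya2* of the *Six3* family list, at 2.14-fold *FVB/N*. Against *FVB/N* alone, 0.27% of genes were longer and 0.219% shorter in *Le-Cre* by at least 1.5-fold without overlap. The 18 annotated *Pou2f1* transcripts run from 223 to 13050 bases, where 2 are of 13050 and 13022 bases and the others of at most 2679. The credibility intervals that RSEM gives for the TPM ran from 2.90 to 5.30 over the *Le-Cre* pools and from 3.42 to 6.78 over the *FVB/N* pools, so they overlapped, and each *Le-Cre* TPM lay below its own interval. As a calculation, each length was matched by placing some reads on the 223-base transcript and all others on the 13050-base one. This took 7.45 to 11.1 reads a pool in *FVB/N*, 6.22 to 16.4 in *P0-3.9GFPCre* and 0.74 to 1.78 in *Le-Cre*. Because the 223-base transcript is the shortest listed, these are the fewest reads that could match the lengths in such a split. The median listed length is 2203.5 bases, and a longer transcript in place of the 223-base one would need more reads. Their number was not calculated. The pools held 534 to 800 expected counts of *Pou2f1*. How reads were really assigned among transcripts, and its part in these lengths, was not tested.

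**Figure D3:**
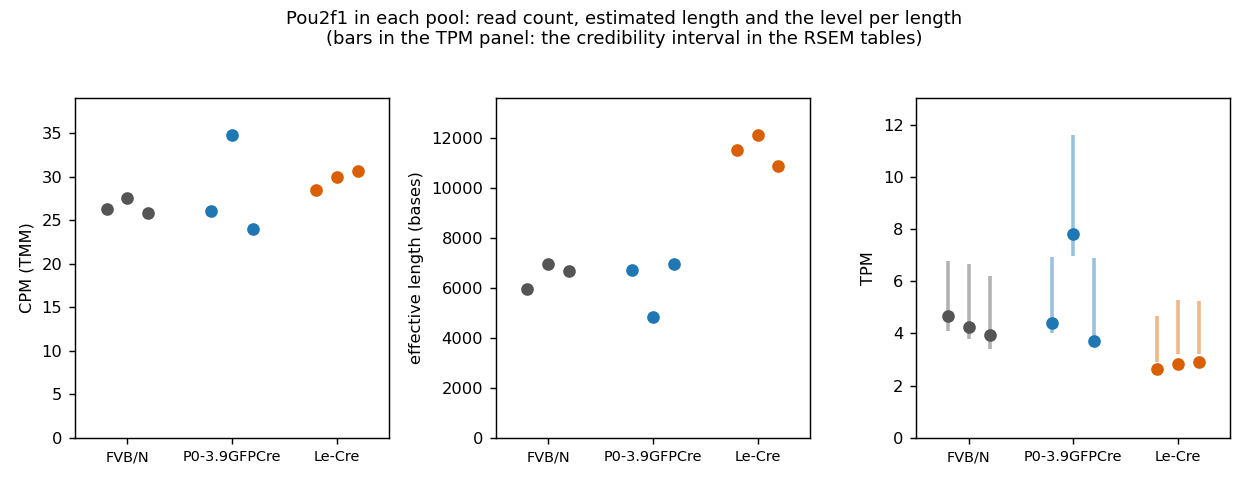
*Pou2f1* in each of the 9 pools as CPM after TMM normalisation, effective length in bases and TPM (vertical axes, from 0), with the credibility intervals of the RSEM tables as bars in the TPM panel. The *Le-Cre* pools have counts of 28.5 to 30.7 CPM against 24.0 to 34.8 elsewhere, lengths of 10890 to 12140 bases against 4839 to 6979 elsewhere, and the 3 lowest TPM values (2.62 to 2.89).

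*Pou2f1* spans chr1:165865154-166002678 on the minus strand and overlaps *Cd247*, a T cell receptor subunit gene on the opposite strand, over 18.1% of its exonic bases. *Cd247* had 25.3 to 85.9 expected counts a pool, and the deposited counts of single transcripts were not analysed here. RefSeq lists 3 starts for *Pou2f1*, with the second 49563 bases and the third 67686 bases from the first. The remaining 8 genes had effective lengths that differed between lines by less than 1.1-fold, as a ratio of means, except *Elp4* in *Le-Cre* against *FVB/N* (0.903).

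Ordered by TPM, the level per length, the 9 genes fell in nearly the same order in the 3 lines. *Rcn1* (139, 153 and 126 TPM in *FVB/N*, *P0-3.9GFPCre* and *Le-Cre*) was followed by *Pax6* (86.3, 95.9 and 85.8), with separate pools in each line. *Six3* (19.5, 19.6 and 20.2) and *Elp4* (17.0, 18.8 and 19.0) followed, with pools that overlapped in *P0-3.9GFPCre* and *Le-Cre*. *Meis2* (14.6, 15.1 and 14.6) overlapped *Elp4* in *FVB/N* only, and *Sox2* lay below it with separate pools. *Pknox1* (4.75, 5.19 and 4.98), *Meis1* (4.597, 4.623 and 4.87) and *Pou2f1* came last, and their pools overlapped except that *Pou2f1* was separate and lowest in *Le-Cre*. Over all pools the enhancer-binding factors lay between 2.62 and 22.9 TPM, while *Pax6* was at 78.4 to 97.6 TPM.

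**Figure D4:**
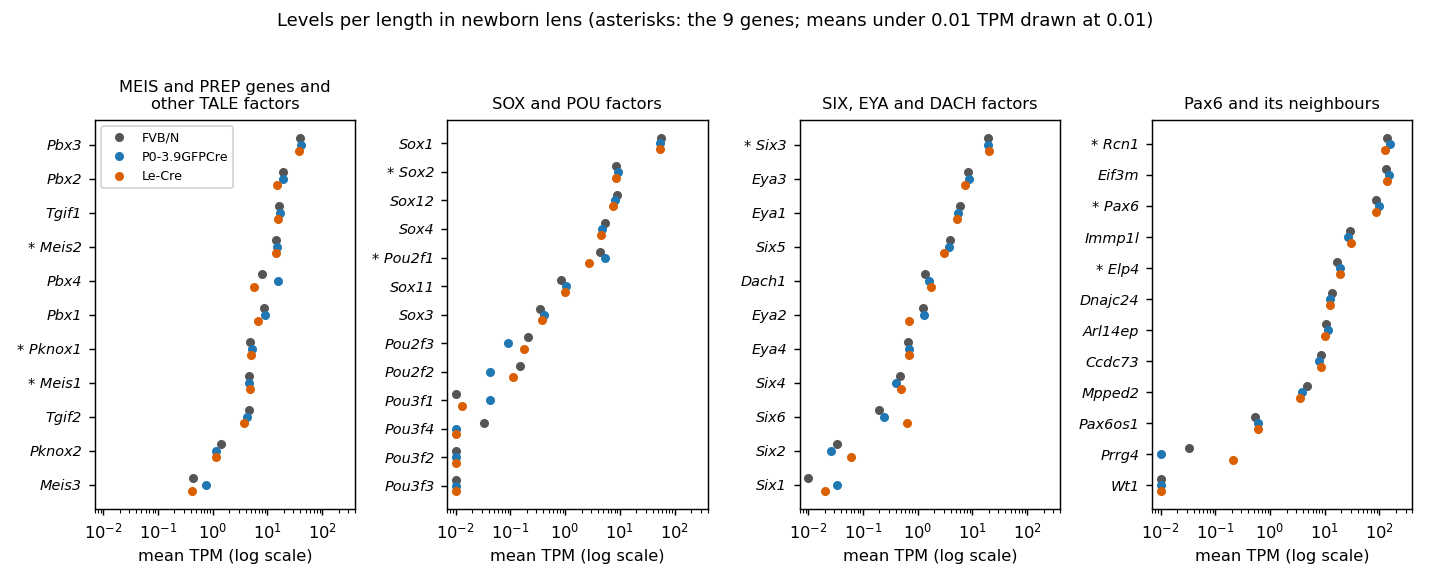
Mean TPM (horizontal axis, log scale) in *FVB/N*, *P0-3.9GFPCre* and *Le-Cre* lenses of the 9 genes (asterisks) and of their families and neighbours, each panel ordered by level. *Six3* leads its family, *Sox1* (54.7 to 56.7 TPM) lies above *Sox2*, and *Pbx3* (38.3 to 40.9 TPM) lies above *Meis2*.

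Genes known to respond to PAX6 in the lens were taken from a list of 14, all of which were tested, and 0 were called in any comparison. An unadjusted p under 0.05 (edgeR) was found for 2 of 14 in each comparison against *FVB/N*, beside 7.94% (*Le-Cre*) and 6.81% (*P0-3.9GFPCre*) of all genes. Against *FVB/N* their median log2 fold change was -0.083 for *Le-Cre* and -0.066 for *P0-3.9GFPCre*, with 10 of 14 below 0 in each, beside medians over all genes of -0.0040 and 0 and shares below 0 of 51% and 50%. Both comparisons use the same 3 *FVB/N* pools. The crystallin regulator *Maf* was at 1464 ± 200 CPM in *FVB/N*, 1242 ± 77.4 in *P0-3.9GFPCre* and 1309 ± 59.4 in *Le-Cre* (SD, n = 3), with overlapping pools. Its log2 fold change against *FVB/N* was -0.24 ± 0.09 for *P0-3.9GFPCre* (SE, unadjusted p = 0.0258, adjusted p = 0.662, edgeR) and -0.16 ± 0.09 for *Le-Cre* (unadjusted p = 0.108, adjusted p = 0.729, edgeR). *Mab21l1*, required for lens placode growth, was at 67.1, 65.2 and 70.8 CPM in *FVB/N*, 54.3, 61.6 and 51.2 in *P0-3.9GFPCre* and 57.7, 59.1 and 55.2 in *Le-Cre*. All 6 transgenic pools were below the *FVB/N* range, as 7.03% of all genes were in *Le-Cre* and 5.94% in *P0-3.9GFPCre*, against the same *FVB/N* pools. The log2 fold change was -0.24 ± 0.08 for *Le-Cre* (SE, unadjusted p = 0.00975, adjusted p = 0.451, edgeR) and -0.28 ± 0.08 for *P0-3.9GFPCre* (unadjusted p = 0.00368, adjusted p = 0.59, edgeR). The cell cycle inhibitor *Cdkn1c* was at 1208, 1196 and 1157 CPM in *FVB/N*, 1242, 1167 and 1212 in *P0-3.9GFPCre* and 1038, 895 and 1089 in *Le-Cre*. It was lowest in the *Le-Cre* pools, with a log2 fold change of -0.24 ± 0.07 against *FVB/N* (unadjusted p = 0.00849, adjusted p = 0.439, edgeR) and of -0.26 ± 0.07 against *P0-3.9GFPCre* (unadjusted p = 0.00475, adjusted p = 0.429, edgeR). *Mab21l2* had the largest log2 fold change of the list in *Le-Cre* against *FVB/N* (0.61 ± 0.57), but it ran from 2.66 to 13.3 CPM within *FVB/N* and from 3.80 to 20.0 within *Le-Cre*, and in each line it was highest in the pool with the highest retina marker sum. That pool also had the highest Y-linked count of its line (193, 135 and 74.2 CPM in *FVB/N*, *P0-3.9GFPCre* and *Le-Cre*). The part of either in the *Mab21l2* values was not tested.

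The genes whose counts followed *Pax6* most closely over the 9 pools were *Ppp1r9a*, *Ift43* and *Ttc5*, with Pearson correlations of 0.959, 0.924 and 0.921 among the 7650 genes with a mean of at least 10 CPM. Without the 2 pools farthest from the median of *Pax6*, pools 1 and 2 of *P0-3.9GFPCre*, the correlations were 0.935, 0.883 and 0.931. As these genes were picked for the highest correlations over the same pools, these values are no separate check. Among the other 8 genes, *Elp4* stood at 0.533, *Meis1* at 0.421, *Pou2f1* at 0.254, *Rcn1* at 0.156, *Meis2* at 0.064, *Sox2* at -0.224, *Six3* at -0.371 and *Pknox1* at -0.573. Over the 7 remaining pools *Elp4* fell to 0.088 and *Meis1* rose to 0.793, so these values moved with the choice of pools. The correlations are a description over pools that share library depth and mixture of cells. *Pax6* itself ran over only 125.0 to 143.4 CPM, and its highest *FVB/N* and *Le-Cre* pools, pool 2 of each, were also those with the highest retina marker sums. These pools also had the highest Y-linked counts of their lines (193 and 74.2 CPM). The same held for summed markers of blood (187.8 and 262.5 TPM) and of pigment epithelium and melanocytes (17.43 and 12.63 TPM). In *P0-3.9GFPCre* the highest *Pax6* count, that of pool 1, came with the lowest retina sum of the line, 3.49 against 8.78 and 5.78 TPM. That pool had the highest blood and pigment sums of the line (150.5 and 11.84 TPM) but not the highest Y-linked count. The part of retina, blood, pigment cells or Y-linked share in these values was not tested.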

How the data were processed

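Expression was measured in 9 pools of newborn lenses, 3 for each line, as single-end reads of 51 bases from polyadenylated RNA. The authors trimmed the reads with Trimmomatic 0.36, mapped them to GRCm38 with GSNAP and ran RSEM 1.3.0, whose deposited gene tables hold expected counts, the estimated number of reads of each gene without normalisation. The same deposited tables from the authors hold TPM, scaled by RSEM for effective length and library size, with effective lengths and credibility intervals. The annotation release and GSNAP version are not given in the sources used here. For coordinates, 47224 of 47729 identifiers matched GENCODE M21.

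Expected counts were rounded and fitted in R 4.3.3 with edgeR 4.0.16 (TMM factors, filterByExpr with a minimum count of 10, 1 coefficient per line over all 9 pools, quasi-likelihood F test, Benjamini-Hochberg adjustment over the 15557 genes kept). The cutoff for a call, 1.5-fold or more with an adjusted p no higher than 0.05, was that of the study, which used DESeq2 1.10.1. Here DESeq2 1.42.0 and limma 3.58.1 were alternatives, with other scalings, filters, samples and covariates and fits that left out 1 pool. Standard errors were obtained by dividing the size of each log2 fold change by the square root of F. TPM and effective lengths were compared by two-sided exact permutation tests (scipy 1.17.1), which cannot go below 0.1 with 3 pools against 3. Precision at this depth is given by the 95% intervals. The fit was tested on simulated counts.

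Groups and replicate numbers came from the sample titles. The labels do not say which litters or days the pools came from, so p-values measure the spread between these pools. The 9 genes and the gene lists were chosen with earlier results of these data known. Named from each list were the genes with an unadjusted p under 0.05 in any comparison and the one with the largest change in *Le-Cre* against *FVB/N*, and the levels of *Pbx3*, *Sox1*, *Sox3*, *Six3os1*, *Sox2ot*, *Pax6os1*, *Paupar* and *Cd247* were added after their values were seen. Sequence windows are from RefSeq, and sequence sharing is the share of 51-base sequences of GENCODE M21 transcripts found in other genes.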

Additional observations from a re-analysis of the deposited data

Results flagged for a closer look

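The effective length of *Pou2f1* in *Le-Cre* lenses, with a mean of 11530 bases over 3 pools against 6531 in *FVB/N* and 6174 in *P0-3.9GFPCre*, stood out in a column of the tables outside the counts used for the calls, where the lines were compared by an exact permutation test alone (p = 0.1, the smallest possible). All 3 *Le-Cre* pools were above the other 6, whereas their read counts lay within the range of the *P0-3.9GFPCre* pools.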

How the results depend on the processing

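None of the 9 genes was called under any of the 11 alternatives or in any fit without 1 pool, except that DESeq2 gave no adjusted p for *Meis1*, *Pknox1* and *Sox2* in *P0-3.9GFPCre* against *FVB/N*. Log2 fold changes near 0 changed sign in 26 values under these alternatives and in 37 of the fits without 1 pool, counted over the 9 genes and the named list genes. A call appeared for 1 of these genes, *Pbx4*, in 3 values under the alternatives and in 2 without *FVB/N* pool 2.

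By setting, the calls over all genes in *Le-Cre* against *FVB/N*, 10 in the main fit, were 54 with DESeq2 without a prior, 0 with limma on log2(TPM + 0.1), 131 without the filter on low counts and 1 with the Y-linked share as covariate. In *P0-3.9GFPCre* against *FVB/N*, with 0 in the main fit, they were 4 and 1 with DESeq2 without and with a prior, 93 without the filter and 1 with the Y-linked share. In *Le-Cre* against *P0-3.9GFPCre*, also 0 in the main fit, they were 38 and 4 with DESeq2, 123 without the filter and 31 with only the pools compared. Leaving out 1 pool gave 0 to 10, 0 to 14 and 0 to 18 calls, the highest of the last 2 without *FVB/N* pool 2. The cause was not tested.

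With the replicate block, calls in *Le-Cre* against *FVB/N* were 2, and in *Le-Cre* against *P0-3.9GFPCre* the log2 fold change of *Pknox1* was 0.002 and of *Mab21l2* -0.24. No other call changed. Pools of the same number were not paired by the data, since their deviations correlated at -0.084 to 0.107 over 9 pairs, against -0.145 to 0.101 for 18 pairs of different number. The block uses the number in each pool's title, and the description of *FVB/N* pool 3 carries another number.

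Sign changes of log2 fold changes in *Le-Cre* against *FVB/N* were 0.0031 for *Pax6* and 0.0069 for *Pknox1* with upper-quartile factors, 0.048 for *Pou2f3* with limma-voom, 0.16 for *Elp4*, 0.023 for *Meis2*, 0.070 for *Pknox1* and -0.60 for *Pou2f1* with limma on TPM, and 0.11 for *Pax6*, 0.0495 for *Elp4* and -0.083 for *Six3* with the Y-linked share. That of *Pou2f1* moved from 0.16 to 0.49 with the Y-linked share (edgeR, adjusted p = 0.954). In *P0-3.9GFPCre* against *FVB/N* they were 0.016 for *Meis1* and 0.13 for *Pknox1* with limma on TPM, and 0.13 for *Meis1*, -0.048 for *Meis2*, -0.074 for *Sox2* and -0.058 for *Cdkn1c* with the Y-linked share. In *Le-Cre* against *P0-3.9GFPCre* they were 0.0005, 0.012 and 0.0012 for *Pknox1* with DESeq2 size factors, upper-quartile factors and no filter, -0.19 for *Mab21l2* with limma-voom, and 0.015 for *Elp4*, -0.84 for *Pou2f1*, -0.033 for *Eya1* and -0.28 for *Mab21l2* with limma on TPM. The TPM of *Pax6* in *P0-3.9GFPCre* moved to 93.75 on the TMM scale per length.

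Leaving out 1 pool at a time, log2 fold changes in *Le-Cre* against *FVB/N* ran from -0.054 to 0.012 for *Pax6*, -0.076 to 0.054 for *Elp4*, -0.063 to 0.054 for *Pknox1*, -0.095 to 0.072 for *Six3*, -0.20 to 0.040 for *Sox2*, -0.81 to 0.57 for *Pou2f3* and -0.085 to 1.31 for *Mab21l2*. In *P0-3.9GFPCre* against *FVB/N* they ran from -0.0092 to 0.12 for *Elp4*, -0.064 to 0.047 for *Meis1*, -0.016 to 0.061 for *Meis2*, -0.073 to 0.051 for *Pknox1*, -0.006 to 0.073 for *Sox2*, -0.082 to 0.20 for *Pou2f1* and -0.24 to 1.57 for *Six6*. In *Le-Cre* against *P0-3.9GFPCre* they ran from -0.045 to 0.064 for *Pknox1*, -0.045 to 0.12 for *Six3*, -0.22 to 0.0098 for *Sox2*, -0.032 to 0.25 for *Pou2f1*, -0.012 to 0.12 for *Mab21l1* and -0.67 to 0.42 for *Mab21l2*. *Pbx4* ran from 0.50 to 1.39 in *P0-3.9GFPCre* against *FVB/N*.

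With 3 pools a line, the precision of each difference is that of its 95% interval.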
